A study of Homo sapiens with 12 samples.

Results

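HT-29 cells carrying an shRNA against MLKL were compared with HT-29 cells carrying an shRNA against GFP after 5 h of TBZ, by sequencing of polyadenylated RNA. HT-29 is a human colorectal adenocarcinoma line. TBZ is the mixture of TNFα (20 ng/mL), the IAP antagonist BV6 (2 µM) and the pan-caspase inhibitor zVAD-fmk (30 µM). The comparison holds the 4 libraries whose titles name both the line and the 5 h TBZ treatment, of 12 in the series: 2 of shGFP cells, for which the labels name no knocked-down gene, and 2 of shMLKL cells, made with a lentivirus. The same pair of lines under DMSO, with 2 libraries each, gave the line difference without TBZ. The other 4 libraries are a first experiment of single libraries, namely parental cells (DMSO, or TBZ for 4 h) and an MLKL knockdown (DMSO, or TBZ for 12 h). Each arm is 1 line, so the effect of the knockdown and any other difference between the lines cannot be told apart. Whether the 2 libraries of a group are separate cultures is not stated in the labels. The p-values therefore measure a spread that may be technical.

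In TNF signalling, receptor-bound complexes activate NF-kB and MAP kinases, and these switch on genes for chemokines, cytokines and immediate early transcription factors. With IAPs antagonised and caspases blocked, RIPK1 and RIPK3 assemble the necrosome and phosphorylate MLKL, a pseudokinase that then permeabilises the plasma membrane. MLKL acts at the last step of this cascade, downstream of the kinases.

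Values are FPKM, fragments per kilobase of transcript, scaled to the fragments sequenced, and a line difference is the difference of group means of log2(FPKM + 1), shMLKL minus shGFP, with its standard error (SE). This scale understates the fold of low genes. A gene was called at a limma Benjamini-Hochberg adjusted p under 0.05 over 10364 genes. Under TBZ 5360 genes were called (51.7%), 2144 of them higher (20.7%) and 3216 lower (31.0%) in shMLKL cells. At least 2-fold differences on the log2 scale were fewer, at 276 genes (2.66%), with 94 genes higher (0.907%) and 182 lower (1.76%). These counts depend on the pseudocount: with 0.1 in place of 1 they were 174 and 369 under TBZ, and the DMSO counts of 162 and 252 became 235 and 651. The median gene lay at -0.06, and the share of calls that were higher moved from 40.0% to 54.6% when library medians were set equal and to 52.1% under quantile normalization, so the direction of small differences depends on the scaling. Under DMSO 6539 genes were called (63.1%), 1899 higher (18.3%) and 4640 lower (44.8%), and 29% of calls were higher as deposited, 53.1% with medians set equal and 47.5% under quantile normalization. The TBZ line difference minus the DMSO line difference, named the difference of line differences here, was called for 2306 genes (22.3%), 1512 higher (14.6%) and 794 lower (7.66%), of which 51 (0.492%) and 144 (1.39%) differed at least 2-fold, with 65.6, 38.9 and 50.8% of calls higher under the 3 scalings. Its count was lower without shGFP DMSO library 1 (1314) or 2 (1452), shGFP TBZ library 1 (1466) or 2 (1417), or shMLKL DMSO library 2 (1478). Under TBZ the libraries of the lines did not overlap for 76.3% of all genes. An exact permutation test of 2 against 2 libraries cannot go below p = 0.333. Because the samples are bulk RNA, fewer cells of a state and less RNA per cell cannot be told apart, and the share of dying cells was not analysed here.

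The libraries read as epithelial. EPCAM lay between 313 and 355 FPKM in the TBZ libraries, whereas the intestinal factors CDX1 and CDX2 were under 0.1 FPKM in each of them. KRT8 and KRT18, keratins of simple epithelia, are listed at 0 in 7 of 8 libraries and at 694 and 535 FPKM in shMLKL DMSO library 2, so an exact 0 in this table can be a failed estimate. Of the 17 leukocyte markers, CD3D, CD3E and NKG7 were at 0 in every library. Others were detected: CD68 lay between 4.18 and 5.30 FPKM and LAPTM5 between 0.662 and 1.76 FPKM in the 8 libraries. Lysozyme (LYZ), 521 to 640 FPKM under TBZ, made up most of the summed level. That sum was 528 to 531 FPKM in shGFP and 605 to 645 FPKM in shMLKL cells. Fibroblast and endothelial markers summed to 1.68 to 3.70 FPKM. Relative depth, read from the commonest ratios of low values, was 95.3 and 95.9% of the deepest library in the shGFP TBZ libraries and 82.9 and 84.7% in the shMLKL TBZ libraries. The part of these gaps in the results was not tested.

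MLKL, the target, was lower in shMLKL cells, at 0.651 and 0.395 FPKM against 1.98 and 2.03 FPKM in shGFP cells under TBZ. The line difference was -0.99 (SE 0.10; limma adjusted p = 0.000152), a 3.84-fold ratio of mean FPKM. Under DMSO MLKL measured 3.95 and 3.89 FPKM in shGFP against 0.606 and 0.545 FPKM in shMLKL cells, a 6.81-fold ratio. In the list of TNF receptor 1 complexes and necroptosis, MLKL included, 10 of 35 measured members were higher and 10 lower, with a median of -0.02. Over all genes 20.7% were higher and 31.0% lower. With medians set equal 13 members of the list were higher and 6 lower. RIPK1, the kinase of the receptor complex, measured 12.4 and 11.6 FPKM in shGFP and 11.5 and 11.5 FPKM in shMLKL cells. RIPK3, the kinase that phosphorylates MLKL, measured 1.90 and 1.74 against 1.97 and 1.88 FPKM. Neither was called (-0.06 and 0.06), and the sign of RIPK1 turned under both scalings. The adaptor and protease of the death complex were higher, FADD by 0.52 (5.61 and 6.71 against 10.01 and 8.54 FPKM) and CASP8 by 0.48 (15.0 and 15.1 against 20.3 and 22.5 FPKM). The deubiquitinase CYLD was higher by 0.47, and the IAP genes BIRC2 and BIRC3 by 0.25 and 0.38. CFLAR, which encodes the caspase-8 regulator cFLIP, was lower (-0.48). TRADD was below the 1 FPKM filter.

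Secreted inflammatory factors were among the genes with the largest differences. CXCL8, the gene of the neutrophil chemokine interleukin-8 (hg19 chromosome 4, 74606223 to 74609433), measured 3413 and 3303 FPKM in shGFP and 218 and 218 FPKM in shMLKL cells under TBZ. Under DMSO it measured 15.6 and 17.3 against 10.6 and 5.94 FPKM. The shMLKL libraries were thus far above both lines under DMSO and far below the shGFP libraries under TBZ, with a 15.4-fold ratio of means and a line difference of -3.94 (SE 0.20; limma adjusted p = 8.4e-06). CXCL1, a further neutrophil chemokine, measured 205 and 209 against 26.9 and 26.3 FPKM, a difference of -2.91 (SE 0.07). CCL20, which attracts CCR6-bearing lymphocytes and dendritic cells, measured 358 and 344 against 49.7 and 46.1 FPKM (-2.85; SE 0.17). For these 3 genes the groups did not overlap under TBZ, as for 76.3% of all genes. Of 13 measured chemokine genes 8 were lower, 5 of them at least 2-fold, and 1 was higher under TBZ. The counts lower and higher were the same under both scalings. Under DMSO 8 were lower, 1 of them at least 2-fold, and 2 were higher. Over all genes 31.0% were lower and 20.7% higher under TBZ, and 44.8% and 18.3% under DMSO. The list's median was -0.415 under TBZ and -0.447 under DMSO. CXCL1 (-0.73) and CCL20 (-0.90) were called lower under DMSO too. The gene higher under TBZ was CCL22, a macrophage-derived ligand of CCR4, at 1.84 and 2.00 against 6.37 and 6.13 FPKM. CXCL2 was lower by 0.42 under TBZ but higher by 1.07 under DMSO. CXCL10, an interferon-induced chemokine, was lower in both conditions, by 0.60 under TBZ and by 1.98 under DMSO.

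Cytokine genes showed the pattern with less of a line difference under DMSO. CSF2, which encodes the growth factor GM-CSF, measured 59.6 and 58.4 FPKM in shGFP and 8.81 and 7.10 FPKM in shMLKL cells under TBZ, a 7.42-fold ratio (-2.75; SE 0.11; limma adjusted p = 3.95e-06). Under DMSO its 4 libraries lay between 0.203 and 0.429 FPKM and no line difference was called (0.07). The IL-6 family cytokine LIF measured 28.7 and 27.9 against 9.63 and 8.66 FPKM, and CLCF1, of the same family, 19.2 and 19.7 against 6.57 and 6.45 FPKM. TNF itself was low, at 2.88 and 2.63 against 0.552 and 0.667 FPKM, as was IL1B at 2.38 and 3.03 against 0.820 and 0.313 FPKM. Of 12 measured genes of the list 8 were lower, 7 at least 2-fold, and 2 were higher, with a median of -1.13 beside -0.06 for all genes. Those 2 were IL15 (0.46) and IL32 (0.63); the IL15 call was lost without shGFP TBZ library 1 (0.40) or shMLKL TBZ library 2 (0.37). Under DMSO 2 were lower and 2 higher.

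Among adhesion and immune surface ligands 8 of 15 were lower and 3 higher under TBZ, beside 31.0% and 20.7% of all genes. ICAM4, a red cell and endothelial adhesion molecule, measured 13.4 and 15.0 against 1.68 and 2.35 FPKM and was under 0.1 FPKM in the DMSO libraries. ICAM1, the ligand of leukocyte β2 integrins, was at 195 and 195 against 115 and 112 FPKM (-0.77). CD47, an inhibitory signal to phagocytes, was lower in both conditions, by 1.26 under TBZ and by 1.39 under DMSO. CD274, the gene of PD-L1, ran the other way: it was higher by 0.63 under TBZ (7.76 and 7.76 against 12.4 and 12.7 FPKM) and by 1.89 under DMSO. The TBZ call was lost when any 1 of the 4 TBZ libraries was left out (limma adjusted p between 0.0771 and 0.0871).

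**Figure D1:**
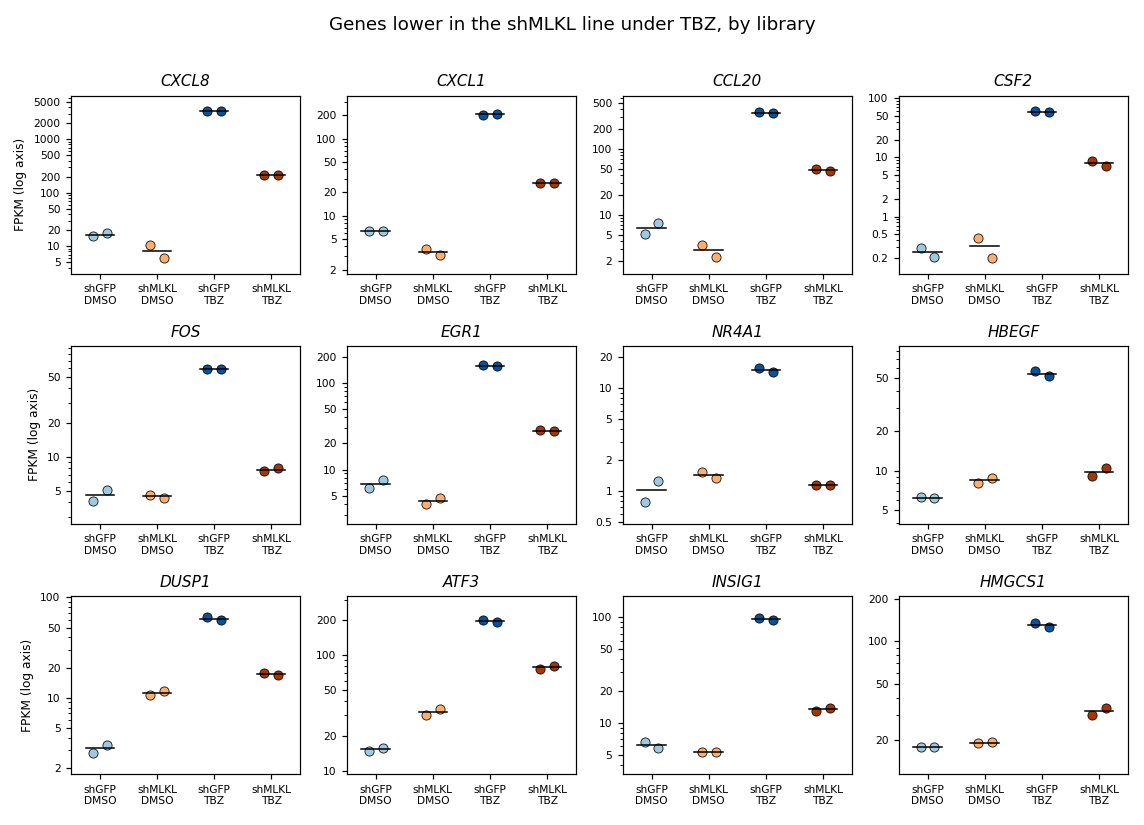
FPKM of 12 genes in each of 8 libraries on log axes, with 1 panel per gene; points are libraries, 2 per group, and bars are group means. In each panel the shGFP TBZ libraries are highest: CXCL8 lies at 3413 and 3303 FPKM there against 218 and 218 FPKM in the shMLKL TBZ libraries, and DUSP1 and ATF3 are higher in shMLKL than in shGFP cells under DMSO.

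The NF-kB pathway genes divided. Of 31 measured subunits, feedback regulators and survival targets 17 were lower and 6 higher, also under both scalings, with a median of -0.28. Over all genes 31.0% were lower and 20.7% higher. The inhibitor NFKBIA measured 317 and 319 against 161 and 165 FPKM (-0.96), and the deubiquitinase TNFAIP3 (A20) 48.9 and 48.6 against 30.9 and 30.0 FPKM (-0.66). The mitochondrial superoxide dismutase SOD2 measured 359 and 359 against 184 and 195 FPKM (-0.92). IER3, an immediate early survival gene, had the largest difference of the list (-1.75; SE 0.04), at 70.8 and 67.9 against 20.2 and 19.7 FPKM, and no called difference under DMSO (-0.01). The subunit genes differed less: NFKB1 was lower by 0.28 and RELA by 0.30, with ratios of 1.22 and 1.24, and the RELA call was lost without shGFP TBZ library 2 (adjusted p = 0.0551) or shMLKL TBZ library 1 (0.0630). BIRC3, another target of the pathway, stood on the other side, at 134 and 134 against 171 and 177 FPKM, as did IRF1, an interferon-regulatory factor, at 37.5 and 37.3 against 61.5 and 64.6 FPKM, and the IkB family member BCL3 (0.45).

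Immediate early genes, the transcription factors and regulators that MAP kinases and SRF switch on within minutes, were mostly lower. Of 28 measured members 26 were lower in shMLKL cells under TBZ, 15 of them at least 2-fold, and 0 were called higher by limma (1 at an unadjusted p under 0.05); with library medians set equal 26 were lower and 1 was higher. KLF4 (-0.05) and BTG1 (0.15) were the 2 without a call, and the sign of KLF4 turned with medians set equal. BTG1 was called higher with medians set equal (0.23) and in the fit of only the 4 libraries compared (0.15). The list's median was -1.07 beside -0.06 for all genes. FOS, an AP-1 subunit (hg19 chromosome 14, 75745481 to 75748937), measured 59.1 and 58.9 FPKM in shGFP against 7.49 and 7.93 FPKM in shMLKL cells, a 7.65-fold ratio (-2.78; SE 0.08; limma adjusted p = 1.28e-06). The nuclear receptor NR4A1 measured 15.9 and 14.4 against 1.15 and 1.15 FPKM, which for shMLKL cells was within the range of 0.779 to 1.52 FPKM spanned by the 4 DMSO libraries. The zinc finger factor EGR1 (hg19 chromosome 5, 137801181 to 137805004) measured 160 and 157 against 28.99 and 27.5 FPKM, a 5.62-fold ratio (-2.45; SE 0.09).

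Under DMSO the same list leaned the other way, with 15 members higher and 5 lower, and the difference of the line differences was called lower for 25 of 28 members and higher for 1, MYC. That difference uses the same TBZ libraries as the counts above. In all, 13 of the 28 were lower under TBZ and higher under DMSO. JUN, the partner of FOS in AP-1, measured 162 and 154 against 103 and 101 FPKM under TBZ (-0.62) and 11.02 and 12.5 against 36.9 and 35.7 FPKM under DMSO (1.55). ATF3, a stress-induced factor of the same class, measured 202 and 192 against 75.5 and 80.2 FPKM under TBZ and 14.9 and 15.6 against 30.3 and 33.9 FPKM under DMSO. The small GTPase gene GEM measured 65.3 and 61.1 against 13.3 and 12.6 FPKM under TBZ and 1.02 and 1.30 against 3.49 and 4.69 FPKM under DMSO. In each of these the shMLKL libraries covered a narrower range between DMSO and TBZ than the shGFP libraries.

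The feedback regulators of MAP kinases followed, with 13 of 20 lower and 3 higher under TBZ, beside 31.0% and 20.7% of all genes. Under DMSO 9 were higher and 7 lower. DUSP1, a phosphatase of p38 and JNK (hg19 chromosome 5, 172195093 to 172198203), measured 63.0 and 59.6 against 17.5 and 16.7 FPKM under TBZ (-1.78; SE 0.08) and 2.86 and 3.43 against 10.6 and 11.7 FPKM under DMSO (1.55; SE 0.08). It was among the genes called in opposite directions, 349 of the 4188 called in both conditions. ERRFI1, an inhibitor of EGF receptor kinases, differed in another way: it lay between 207 and 238 FPKM in the 4 DMSO libraries, at 366 and 356 FPKM in shGFP TBZ and at 89.6 and 93.7 FPKM in shMLKL TBZ, below its DMSO level. The ERK phosphatases DUSP4 (0.39) and DUSP6 (0.36) were higher in shMLKL cells. Of EGF receptor ligands, HBEGF was at 56.3 and 52.3 against 9.10 and 10.5 FPKM (-2.36; SE 0.07), whereas AREG (238 and 234 against 244 and 256 FPKM) and EREG (401 and 420 against 372 and 416 FPKM) were not called; with medians set equal AREG was called (0.16) and the sign of EREG turned. ZFP36, the gene of tristetraprolin, which destabilises cytokine mRNAs, was lower too (-1.38).

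Genes of the actin cytoskeleton and matrix that SRF and YAP regulate were lower in 17 of 33 cases and higher in 4 under TBZ. Over all genes 31.0% were lower and 20.7% higher. Under DMSO 19 of the list were higher and 7 lower, beside 18.3% and 44.8% of all genes. The difference of line differences was called lower for 19 and higher for 0 by limma (1 at an unadjusted p under 0.05). THBS1, a matricellular glycoprotein, measured 31.3 and 29.5 against 1.51 and 1.66 FPKM, a 19.2-fold ratio (-3.60; SE 0.07; limma adjusted p = 2.64e-07). CTGF measured 8.18 and 6.87 against 0.774 and 0.977 FPKM, and KRT17, a keratin of stressed epithelia, 26.9 and 25.7 against 3.39 and 3.64 FPKM. Under DMSO THBS1 (-1.05) and KRT17 (-0.56) were already called lower, and CTGF was called higher (0.29). The actin gene ACTB was lower by 0.68. The elastase inhibitor PI3 measured 32.1 and 27.6 against 0.763 and 3.10 FPKM under TBZ. Under DMSO it measured 4.34 and 5.06 FPKM in shGFP and 1.07 and 0.337 FPKM in shMLKL cells (-1.77), also called lower.

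Promoter sequence is shown for genes of these groups because their known regulators bind close to the start. The 250 bases before 1 start per gene were searched on both strands in RefSeq sequence of GRCh38.p14, which matched 8157 of the 10364 genes; a match describes letters and is not evidence of binding. Capitals mark the AP-1 site TGACTCA, an NF-kB consensus match, the serum response element (CArG box) or the cAMP response element TGACGTCA. Only exact matches were marked, so a near match to the NF-kB consensus, such as tggaatttcc in the CXCL8 stretch, stays in lower case. An unmarked stretch is therefore not evidence that a site is absent. The stretches end at the base before the start: CXCL8 at chr4:73740429-73740568 (plus strand), CXCL1 at chr4:73869253-73869392 (plus), EGR1 at chr5:138465359-138465478 (plus) and DUSP1 at chr5:172771196-172771335 (minus).
CXCL8: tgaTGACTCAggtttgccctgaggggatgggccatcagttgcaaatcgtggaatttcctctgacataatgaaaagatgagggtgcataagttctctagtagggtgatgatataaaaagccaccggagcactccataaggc
CXCL1: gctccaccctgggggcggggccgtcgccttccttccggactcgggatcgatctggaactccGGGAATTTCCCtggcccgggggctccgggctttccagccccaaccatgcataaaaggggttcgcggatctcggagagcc
EGR1: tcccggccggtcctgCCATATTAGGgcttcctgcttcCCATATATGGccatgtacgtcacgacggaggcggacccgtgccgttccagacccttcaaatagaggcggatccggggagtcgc
DUSP1: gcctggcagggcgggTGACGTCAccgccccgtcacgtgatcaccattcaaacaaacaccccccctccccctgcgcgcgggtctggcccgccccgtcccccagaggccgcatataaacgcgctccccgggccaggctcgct

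The CXCL8 match begins 137 bases before the start, the 2 overlapping NF-kB matches of CXCL1 begin at 79 and 78, the EGR1 boxes at 105 and 83, and the DUSP1 element at 125. Over the 27305 promoters of the table the NF-kB consensus was found in 5.05%, the AP-1 site in 4.16%, the CArG box in 1.14% and the cAMP element in 1.77%. Among genes kept the shares were 5.99, 2.49, 0.956 and 3.0%. Of the 91 genes at least 2-fold lower under TBZ with a called further lowering from DMSO, 65 had a promoter, and 8 of these held the NF-kB consensus (12.3%), 3 the AP-1 site (4.62%), 4 the CArG box (6.15%) and 1 the cAMP element (1.54%). Of 47 promoters of the 2-fold lower genes without a called difference from DMSO, 6 held the NF-kB consensus (12.8%). In that set 0 held the AP-1 site, the CArG box or the cAMP element. Of 66 promoters of the genes at least 2-fold higher, 4 held the NF-kB consensus (6.06%). The AP-1 site was in 3 of these (4.55%), the CArG box in 2 (3.03%) and the cAMP element in 3 (4.55%). For the 10 chemokine promoters the NF-kB count was 7 (70.0%). Of 19 promoters of the immediate early list 0 held the NF-kB consensus or the AP-1 site. The CArG box and the cAMP element were each found in 2 of them (10.5%). The shares are descriptions of sets chosen by the same fit.

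Cholesterol synthesis and uptake, the SREBP2 programme, was lower in 26 of 32 genes and higher in 1, INSIG2, whose call was lost without shGFP TBZ library 1 (0.19) or shMLKL TBZ library 1 (0.26); 23 and 24 were lower under the scalings. INSIG1, the sterol-sensing brake on SREBP processing and itself an SREBP target (hg19 chromosome 7, 155089486 to 155101945), measured 97.8 and 94.4 FPKM in shGFP and 12.97 and 13.9 FPKM in shMLKL cells under TBZ, a 7.14-fold ratio (-2.75; SE 0.07; limma adjusted p = 3.95e-07). Its 4 DMSO libraries lay between 5.32 and 6.61 FPKM. HMGCS1, a synthase early in the pathway, measured 136 and 127 against 30.2 and 33.6 FPKM (-2.01; SE 0.06), with no called difference under DMSO (0.10). The sterol oxidase MSMO1 measured 33.6 and 30.7 against 8.60 and 8.40 FPKM. FASN, the fatty acid synthase, differed in both conditions, by -1.66 under TBZ and -1.24 under DMSO. The difference of line differences was called lower for 12 of the 32 genes and higher for 0 by limma (2 at an unadjusted p under 0.05), and 22 were already lower under DMSO. Of all genes 7.66% were called lower for that difference, 44.8% under DMSO and 31.0% under TBZ. The sterol response element TCACNCCAC was found in 1 of 25 promoters of the list (4.0%), against 0.919% of genes kept.

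**Figure D2:**
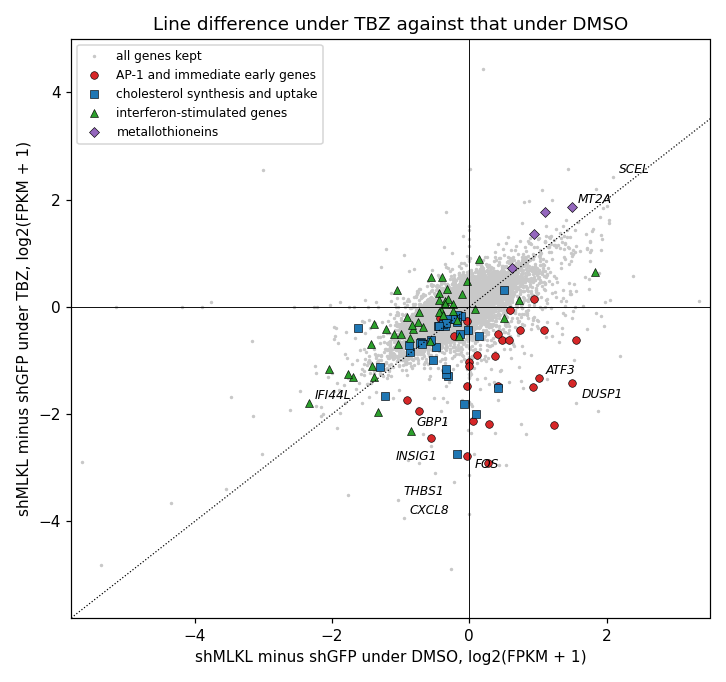
Line difference under TBZ (vertical) against that under DMSO (horizontal), both shMLKL minus shGFP in log2(FPKM + 1), for 10364 genes; coloured symbols are 4 gene lists and the dotted line marks equal differences. Immediate early genes, apart from MYC, lie below the line and mostly to the right of 0, while the metallothionein list lies above 0 on both axes.

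Line differences already present under DMSO made up much of the rest. The TBZ and DMSO comparisons share no library, and of the 5360 genes called under TBZ 3839 (71.6%) were called in the same direction under DMSO, which is 58.7% of the 6539 called there. Pearson's r across genes was 0.611, a description, since genes of a library share its depth and preparation. Direction mattered: 86 of the 94 genes at least 2-fold higher under TBZ were also called higher under DMSO, against 124 of the 182 at least 2-fold lower genes that were also called lower. Of the others in the lower set, 23 were called higher under DMSO and 35 were not called there, and 33 of those 35 were called for the difference of line differences. The medians show the same split, 1.22 under TBZ and 1.24 under DMSO for the higher genes, -1.29 and -0.90 for the lower genes.

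The genes most elevated in shMLKL cells were mostly also higher under DMSO. SCEL, a precursor of the cornified envelope of squamous epithelia, measured 7.16 and 7.13 FPKM in shGFP and 41.3 and 43.6 FPKM in shMLKL cells under TBZ, a 5.94-fold ratio (2.41; SE 0.08; limma adjusted p = 1.31e-06), and 18.2 and 21.1 against 82.0 and 91.6 FPKM under DMSO. Trypsinogen PRSS1 (2.71 and 2.25 against 15.9 and 14.0 FPKM) and the trypsin inhibitor SPINK1 (1.87 and 2.76 against 11.2 and 11.2 FPKM) were higher together. The semaphorin and VEGF coreceptor NRP1 measured 3.01 and 3.26 against 12.1 and 12.5 FPKM. The ATG8-family autophagy gene GABARAPL1 (1.84) and the endoplasmic reticulum chaperone HSPA13 (1.63) also differed by similar amounts under DMSO, at 1.95 and 2.03. LCN2, a siderophore-binding antimicrobial protein, was at 315 and 353 against 833 and 812 FPKM, and the secreted protease KLK6 at 124 and 125 against 311 and 299 FPKM; their differences from DMSO were not called (-0.12 and -0.06).

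Metallothioneins, small proteins that bind zinc and copper, were higher in shMLKL cells in both conditions. All 4 measured members of the list were called higher under TBZ, under DMSO and under both scalings, with a median of 1.56 under TBZ. MT2A measured 17.0 and 20.1 against 73.0 and 66.7 FPKM (1.86; SE 0.12), MT1X 4.42 and 4.15 against 14.8 and 19.5 FPKM, and MT1E 35.7 and 55.9 against 121 and 113 FPKM; the zinc exporter SLC30A1 was higher by 0.72. The metallothionein genes are near-identical copies, so the share of each is uncertain. Of the list 3 genes had a promoter, and each held the metal response element (TGCACNC or TGCGCNC), which 34.3% of kept genes also held; MT2A is shown because it held 6 matches, in capitals, within 180 bases before its start (chr16:56608404-56608583, plus strand).
MT2A: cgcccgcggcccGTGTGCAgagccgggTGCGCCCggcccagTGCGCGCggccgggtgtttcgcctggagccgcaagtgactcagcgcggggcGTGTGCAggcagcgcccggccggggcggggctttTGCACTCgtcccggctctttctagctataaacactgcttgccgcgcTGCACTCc

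Of 34 measured stress genes of the endoplasmic reticulum 14 were higher, 4 lower and 16 not called under TBZ, with a median of 0.07. Under DMSO 22 were higher and 5 lower. Over all genes 20.7% were higher and 31.0% lower under TBZ, and 18.3% and 44.8% under DMSO. HSPA5, the chaperone BiP, measured 270 and 270 against 493 and 512 FPKM (0.89), and DNAJC3, its cochaperone, 19.0 and 19.4 against 37.8 and 37.9 FPKM (0.94). PPP1R15A, the stress-induced eIF2α phosphatase subunit, was higher by 1.49 under DMSO but lower by 0.20 under TBZ, a call lost under both scalings and without shGFP TBZ or shMLKL TBZ library 1, where it measured 446 and 433 against 370 and 394 FPKM. Cytosolic heat shock proteins were lower instead, in 14 of 18 genes, with 1 higher. HSPB1 measured 25.5 and 27.3 against 9.78 and 8.49 FPKM (-1.44) and differed by -1.48 under DMSO.

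Genes lower in both conditions included enzymes and epithelial proteins. AKR1B10, an aldo-keto reductase, measured 16.9 and 16.03 against 2.62 and 2.64 FPKM under TBZ (-2.27; SE 0.07) and 17.3 and 16.5 against 4.01 and 3.43 FPKM under DMSO. The aldehyde dehydrogenase ALDH3A1 measured 5.73 and 5.59 against 0.887 and 0.773 FPKM. VIL1, villin of the brush border, measured 15.2 and 15.2 against 5.72 and 6.11 FPKM (-1.23), with -1.30 under DMSO. The calcium-dependent membrane-binding protein CPNE2 (-1.99) and the ion pump regulator FXYD3 (-1.97) were also lower. VIL1 and PHGR1 (-1.29) are colon markers, of which 7 of 14 measured were lower and 2 higher, beside 31.0% and 20.7% of all genes. The summed level of the colon list was 1149 and 1152 FPKM in shGFP and 1122 and 1106 FPKM in shMLKL cells under TBZ.

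**Figure D3:**
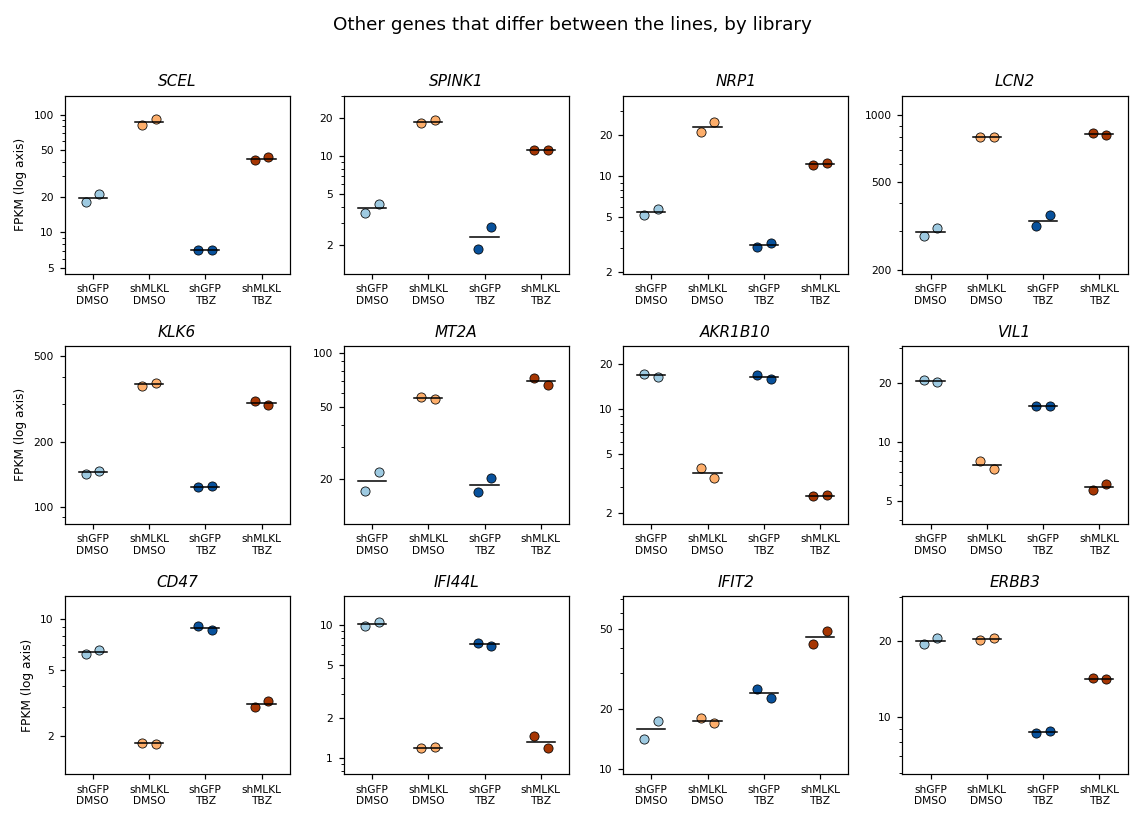
FPKM of 12 further genes in each of 8 libraries on log axes; points are libraries, 2 per group, and bars are group means. SCEL to MT2A are higher and AKR1B10 to IFI44L lower in shMLKL cells under both conditions, while IFIT2 and ERBB3 separate the lines under TBZ and overlap under DMSO.

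Interferon-stimulated genes carried a low level in shMLKL cells that was smaller under TBZ. Under DMSO 36 of 45 measured genes were lower and 3 higher, beside 44.8% and 18.3% of all genes. Under TBZ 26 were lower and 10 higher, beside 31.0% and 20.7%. The difference of line differences was called higher for 26 and lower for 5, beside 14.6% and 7.66%. With medians set equal it was called higher for 21 and lower for 5. IFI44L measured 7.33 and 6.88 against 1.46 and 1.19 FPKM under TBZ (-1.80; SE 0.08), and 9.70 and 10.5 against 1.19 and 1.20 FPKM under DMSO (-2.34). OAS2, which senses double-stranded RNA, was lower by 1.16 under TBZ and by 2.04 under DMSO. The antiviral RNA-binding protein IFIT2 measured 25.02 and 22.7 against 42.1 and 48.7 FPKM under TBZ (0.90; SE 0.11), with no called difference under DMSO (0.14). IFIT3 was higher by 0.56 under TBZ and lower by 0.56 under DMSO. The guanylate-binding proteins, induced by both interferon and TNF, departed from this: GBP1 measured 39.5 and 41.2 against 7.14 and 7.51 FPKM (-2.31; SE 0.07) and GBP2 16.1 and 14.9 against 3.20 and 3.30 FPKM (-1.96), each further below shGFP than under DMSO (-0.85 and -1.33).

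The interferon-stimulated response element (GAAA, any 2 bases, GAAA) was found in 18 of 35 promoters of this list (51.4%) and in 2.4% of genes kept. IFI44L is shown, with 1 of its 2 matches in the last 120 bases before the start (chr1:78620328-78620447, plus strand, in capitals).
IFI44L: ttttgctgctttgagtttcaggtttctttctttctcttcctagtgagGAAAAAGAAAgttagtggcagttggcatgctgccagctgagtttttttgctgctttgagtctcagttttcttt

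Of 32 mitosis genes 26 were lower under DMSO in shMLKL cells and 0 were called higher by limma (1 at an unadjusted p under 0.05), whereas under TBZ 11 were higher, 6 lower and 15 not called. With medians set equal 16 were lower and 4 higher under DMSO, and 3 lower and 14 higher under TBZ; under quantile normalization 20 were lower under DMSO. Of the 12 called in both conditions 6 had the same and 6 the opposite direction. The difference of line differences was called higher for 27 of 32 and, with medians set equal, for 20. Over all genes 44.8% were lower and 18.3% higher under DMSO. The difference of line differences was called higher for 14.6% and lower for 7.66% of all genes. CCNB2, a B-type cyclin, measured 27.1 and 24.5 FPKM in shGFP and 38.2 and 40.8 FPKM in shMLKL cells under TBZ, and 43.5 and 40.9 against 42.2 and 35.9 FPKM under DMSO. MKI67, the proliferation marker Ki-67, measured 36.4 and 36.1 against 38.2 and 39.2 FPKM under TBZ, called higher only with medians set equal (0.17), and 57.9 and 54.0 against 39.8 and 42.7 FPKM under DMSO. PCNA, the replication clamp, was higher under TBZ (39.7 and 37.6 against 60.1 and 64.2 FPKM). Replication genes as a list were lower under TBZ in 16 of 38 cases and higher in 4, beside 31.0% and 20.7% of all genes. Under DMSO 32 were lower and 1 was higher. The difference of line differences was called higher for 15 and lower for 0. With medians set equal it was called higher for 8.

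At least 2-fold higher under TBZ without a called difference under DMSO were 7 genes. Only 3 of these were called for the difference of line differences. Among smaller differences of this kind, ERBB3, a receptor of neuregulins, measured 8.69 and 8.80 against 14.3 and 14.2 FPKM under TBZ (0.64; SE 0.04) and between 19.5 and 20.7 FPKM in the 4 DMSO libraries. The iron exporter SLC40A1 measured 3.74 and 3.12 against 7.63 and 6.01 FPKM (0.82), and CRB3, a cell polarity protein, was higher by 0.74. BMF, a pro-apoptotic BH3-only gene, measured 1.25 and 1.01 against 3.08 and 2.97 FPKM (0.92), with a smaller difference also called under DMSO (0.26). PMAIP1, the BH3-only gene of NOXA, was lower under TBZ (-1.02), at 63.2 and 61.6 against 29.7 and 31.1 FPKM. Under DMSO PMAIP1 was called higher (0.24).

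**Figure D4:**
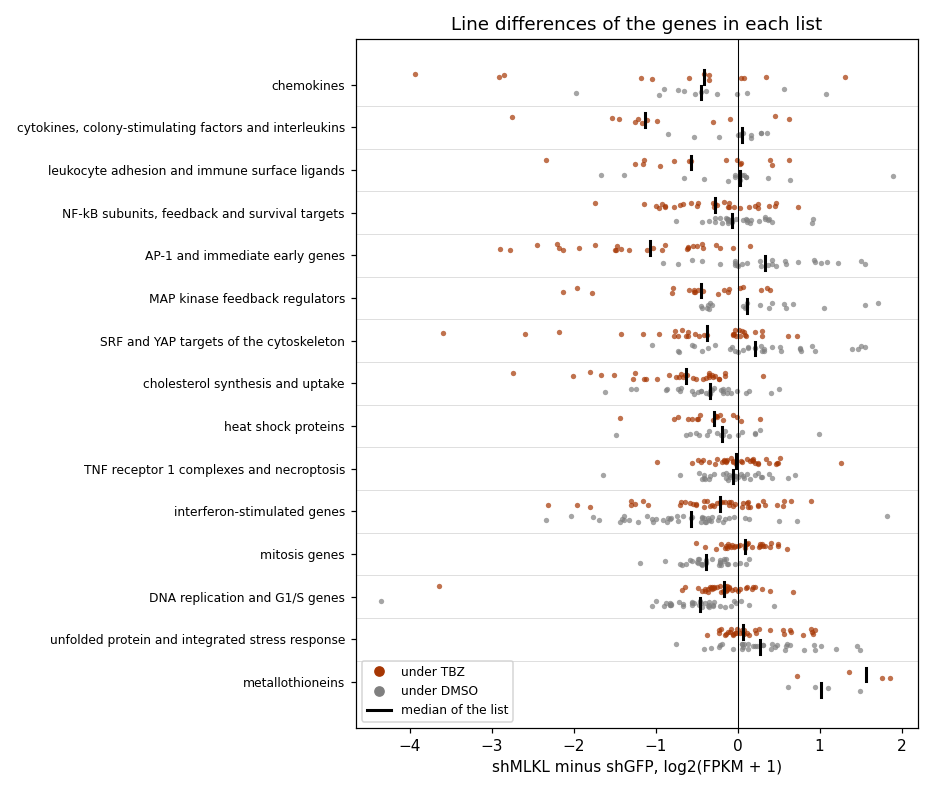
Line differences (shMLKL minus shGFP, log2(FPKM + 1)) of the measured genes of 15 lists under TBZ and DMSO; each point is a gene and black ticks are list medians. The median of the immediate early list lies at -1.07 under TBZ and right of 0 under DMSO, and that of the metallothionein list at 1.56 under TBZ.

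Genes listed at 0 also reached the extremes of the comparison. Of the genes kept 131 were at 0 in at least 1 TBZ library, among them 8 of the 94 at least 2-fold higher and 19 of the 182 at least 2-fold lower. BLZF1, a Golgi protein gene, is listed at 0 in both shGFP TBZ libraries and at 20.8 and 20.5 FPKM in the shMLKL TBZ libraries, but at 16.2 to 19.6 FPKM in all 4 DMSO libraries. RUVBL1, an ATPase that every cell uses, is listed at 0 in the 4 shMLKL libraries and at 27.5 and 26.9 FPKM in shGFP under TBZ. RFC4 (11.3 and 11.8 FPKM in shGFP), TMEM243 (34.9 and 23.5 FPKM) and GLIPR1 (13.5 and 13.7 FPKM) are likewise listed at 0 in both shMLKL TBZ libraries. The differences fitted for these genes rest on the zeros and are no measure of a fold. Restricted to genes above 0 in all 4 TBZ libraries, a choice made after the values were seen, 86 genes were at least 2-fold higher and 163 at least 2-fold lower.

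The first experiment allowed values to be set side by side only, since its times differ and each group is 1 library. CXCL8 measured 1110 FPKM in parental cells after 4 h and 42.9 FPKM in the knockdown after 12 h of TBZ. FOS measured 121 and 11.5 FPKM, EGR1 274 and 24.8 FPKM and INSIG1 128 and 44.3 FPKM in the same order. Other genes lower in shMLKL cells under TBZ ran the other way there: GBP1 measured 37.6 and 58.9 FPKM, MSMO1 11.6 and 14.9 FPKM, IFI44L 8.47 and 30.1 FPKM and CD47 2.82 and 8.46 FPKM. IFIT2 measured 81.8 and 443 FPKM. These genes were chosen after their values were seen. For the line features, the knockdown and parental libraries under DMSO could be compared in sign. Of 76 genes at least 2-fold higher in shMLKL cells under TBZ and called so under DMSO, 31 lay above and 45 below the parental level in the first experiment, and of 120 such lower genes 54 lay below and 66 above. Over all genes 5375 of 9744 lay above. SCEL, for example, measured 18.3 FPKM in parental and 8.36 FPKM in knockdown cells under DMSO there. In the same order MT2A measured 17.6 and 17.7 FPKM, MT1X 2.43 and 2.82 FPKM and MT1E 23.2 and 23.1 FPKM.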

How the data were processed

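The authors deposited 1 table of gene values for the 8 libraries of the second experiment and 4 transcript lists for the first. The table's header gives no unit; its values were taken as FPKM because the submitters' processing notes name Cufflinks 2.2.1 (beside TopHat2 2.0.13, STAR 2.4.0f1, GATK and hg19, with no role stated), and whether they were scaled further is not given in the sources used here. The lists hold FPKM in a column with other attributes, per the file headers. Read counts were not used here, so depth is relative. Of several lines for 1 symbol, the one with the highest mean was used, and genes with a group mean of at least 1 FPKM (10364) were fitted as log2(FPKM + 1) in R 4.3.3 by limma 3.58.1 (a mean per group, variance trend, 4 residual degrees of freedom), two-sided, Benjamini-Hochberg over all genes. The fit was tested on simulated data. First-experiment values are sums over RefSeq transcripts. The members, the 36 gene lists and the naming rule were chosen with earlier results of these data known. The rule took MLKL, receptor and necrosome genes, the 10 largest differences each way (at least 5 FPKM, no overlap), genes differing under TBZ alone, in both conditions or in opposite directions, and up to 3 called members per list; other genes were named after their values were seen, and some items are not reported here. Same-numbered libraries were not paired: deviations correlated at -0.066 to 0.028. Alternatives changed the pseudocount (0.1, 0.5), filter, scaling, line choice, trend, libraries fitted and replicate block.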

Additional observations from a re-analysis of the deposited data

Results flagged for a closer look

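The line difference under TBZ minus that under DMSO was called (limma, adjusted p under 0.05) for the following genes named in the text, each given as that log2 value; it shares its libraries with both line differences. A negative value means that shMLKL cells lay lower relative to shGFP cells under TBZ than under DMSO. Among chemokine genes the values were -2.98 for CXCL8, -2.18 for CXCL1, -1.49 for CXCL2, -1.95 for CCL20, 1.38 for CXCL10 and 0.75 for CCL22. For cytokine genes they were -2.82 for CSF2, -1.69 for LIF, -1.73 for CLCF1, -1.23 for TNF and -1.29 for IL1B. The surface ligand genes gave -2.37 for ICAM4 and -1.27 for CD274. In the NF-kB targets and regulators the difference was -1.73 for IER3, -0.70 for SOD2, -0.20 for NFKBIA, -0.52 for TNFAIP3, -0.40 for RELA and -0.60 for CFLAR.

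Among immediate early genes the values were -2.75 for FOS, -1.89 for EGR1, -3.18 for NR4A1, -2.17 for JUN, -2.35 for ATF3, -3.43 for GEM, -0.79 for BTG1, -1.21 for BTG2, -0.64 for KLF4 and 0.22 for MYC. For genes of MAP kinase feedback, EGF receptor signalling and mRNA decay they were -3.34 for DUSP1, -0.67 for DUSP4, -2.08 for ERRFI1, -2.73 for HBEGF, -1.06 for AREG, -0.92 for EREG, 0.63 for ERBB3 and -2.13 for ZFP36. The cytoskeletal, matrix and barrier genes gave -2.56 for THBS1, -2.47 for CTGF, -2.04 for KRT17, -0.59 for ACTB, -1.74 for PI3 and 0.55 for CRB3. In the sterol and lipid genes the difference was -2.57 for INSIG1, -2.10 for HMGCS1, -1.72 for MSMO1 and -0.43 for FASN.

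Among interferon-stimulated genes the values were 0.54 for IFI44L, 0.88 for OAS2, 0.76 for IFIT2, 1.11 for IFIT3, -1.46 for GBP1 and -0.63 for GBP2. For cell cycle and p53 genes they were 0.71 for CCNB2, 0.54 for PCNA, 0.52 for MKI67 and -1.64 for PLK3. The cell death genes gave 0.66 for MLKL, 0.55 for FADD, 0.67 for BMF and -1.26 for PMAIP1. In the stress and metabolic genes the difference was -0.31 for HSPA5, -1.69 for PPP1R15A, -0.34 for AKR1B10 and 0.89 for SLC40A1. The annexin gene ANXA1 gave -0.25. 5 genes listed at 0 in a TBZ library were also called, with 4.24 for BLZF1, -4.63 for TMEM243, 0.56 for RUVBL1, -3.87 for GLIPR1 and 0.70 for RFC4; these fitted values rest on the zeros and are no measure of a fold.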

How the results depend on the processing

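Counts of calls under TBZ (5360) and DMSO (6539) stayed within 1.5 times under each alternative run. Leaving out 1 library at a time gave 4181 to 5264 calls under TBZ. For the difference of line differences (2306) it gave 1314 to 1690, and fewer libraries leave fewer degrees of freedom. No label says what a replicate number marks, and same-numbered libraries did not deviate together, so the replicate block was an alternative: it gave 5222, 6450 and 2062 calls and changed no call of a named gene under TBZ. Without genes at 0 in a TBZ library, an alternative chosen after seeing the data, the counts were 5432, 6586 and 2450. The line difference under TBZ turned positive for RIPK1 with medians set equal (0.017) and under quantile normalization (0.0080), for EREG with medians set equal (0.016) and for KLF4 with medians set equal (0.023); for EREG, leaving out 1 library gave -0.1414 to 0.0191; none of these positive values was called. The cause was not tested. Of 166 genes followed under TBZ, 6 to 8 lost their call without 1 TBZ library. A fit of only the 4 libraries of a condition gives no difference of line differences. With 2 libraries a group and values without counts, no counting error can be given.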

Other observations

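Over all genes 31.0% were called lower and 20.7% higher under TBZ, and 44.8% lower under DMSO, beside which the following counts stand. Of 51 nuclear-encoded respiratory chain genes 19 were lower and 1 higher in shMLKL cells under TBZ (limma), with a median of -0.10 against -0.06 over all genes; with medians set equal 8 were lower and 3 higher, where 2354 of all 10364 genes were lower, and 38 were lower under DMSO. NDUFA2, a complex I subunit, measured 12.6 and 15.0 FPKM in shGFP and 5.73 and 5.91 FPKM in shMLKL cells (-1.11; SE 0.15), and NDUFB10 22.6 and 28.4 against 13.5 and 15.2 FPKM (-0.78). Of 25 p53 targets 14 were lower and 5 higher; the antiproliferative gene BTG2 measured 41.2 and 38.9 against 9.51 and 9.89 FPKM (-1.94) and the kinase gene PLK3 15.8 and 15.9 against 6.03 and 6.79 FPKM (-1.19). Of 13 tested WNT feedback and stem cell genes 7 were lower and 4 higher, with CD44, a hyaluronan receptor, at 54.6 and 52.0 against 27.4 and 28.3 FPKM (-0.91).

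The ESCRT-III and membrane repair genes, which remove damaged membrane and delay lysis by MLKL, were higher in 10 of 28 cases and lower in 5. ANXA1, an annexin, measured 272 and 279 against 436 and 436 FPKM (0.66), and FLOT2, a flotillin, 15.9 and 13.1 against 7.12 and 7.49 FPKM (-0.89). Both differed in the same direction under DMSO (0.91 and -1.02). Of 77 cytosolic ribosomal protein genes 7 were lower and 2 higher, a direction that turned with medians set equal (1 lower and 11 higher). Of 30 replication-dependent histone genes, near-identical copies whose transcripts mostly lack a poly-A tail, 7 were higher and 2 lower. Among the latter, HIST1H2BK measured 23.4 and 22.9 against 6.46 and 7.58 FPKM (-1.59).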
